A study of Homo sapiens with 42 samples.

Results

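NEAT1 and MALAT1 are neighbouring nuclear long noncoding RNAs, and NONO, SFPQ and PSPC1 are the 3 DBHS proteins that bind RNA in the paraspeckle. These 5 genes were taken by symbol from a table of 26228 genes, and each has 1 row there. They were chosen by a measured value, the lower NEAT1 level in HAP1 cells with CDK7 C312S when YKL at 2 µM was added to THZ531. That contrast, and each comparison of NEAT1 that uses either of those groups, is therefore given as a description with no test.

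The samples are 42 polyadenylated RNA libraries, 3 in each of 14 groups. HAP1, a near-haploid human line derived from a chronic myelogenous leukaemia, was used unmodified (WT) or carrying the C312S change in CDK7, at the cysteine to which covalent inhibitors of this kinase attach. Both lines were exposed for 24 h to DMSO as vehicle, to YKL (500 nM or 2 µM), to THZ531, to THZ1, and to combination treatments with YKL at 500 nM or at 2 µM. YKL is a covalent inhibitor of CDK7, THZ531 is directed at CDK12 and CDK13, and THZ1 at CDK7, CDK12 and CDK13. For the combination treatments the labels do not list the compounds, which are read here from column names that join the YKL code with the number of THZ531. No dose of THZ531 or THZ1 is stated, nor whether the C312S line is 1 clone. Nothing says that the 3 libraries of a group come from separate cultures, so the p-values reflect how libraries of a group vary, and that variation may be technical.

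Paraspeckles are nuclear bodies built on NEAT1. A short polyadenylated transcript and a long one start at the same site, and the long one is the scaffold on which NONO, SFPQ and PSPC1 assemble. MALAT1 is a neighbouring RNA found in nuclear speckles, bodies rich in splicing factors. The long NEAT1 and MALAT1 RNAs end in a triple helix instead of a poly(A) tail, after RNase P releases a tRNA-like RNA. NONO, SFPQ and PSPC1 share paired RNA recognition motifs and a coiled coil through which they pair with each other.

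Expression was read as FPKM, which sets fragments against gene length and sequenced depth. Only RNA was measured, so where a protein is said to rise or fall, its transcript is meant. Depth, estimated from the spacing of low values, ranged from about 7680000 to 72100000 reads per library. At the length of the short transcript, NEAT1 held an estimated 247 reads in its shallowest library and a median of 622. MALAT1 held an estimated 258 and 654 at its length. The libraries of C312S with DMSO and of C312S with THZ1 stand apart, with summed FPKM of 794374 and 852330 on average. The remaining C312S groups had 556810 to 591154 and the WT groups 455948 to 628311. Changes against C312S DMSO also went with the GC content of the genes. Their Spearman correlation was −0.09 with THZ1 and 0.47 to 0.59 with the other treatments. In WT it was −0.46 with THZ531 and with the combination at 2 µM, and −0.30 to −0.03 with the others. Comparisons of C312S with DMSO are therefore also given with C312S YKL 500 nM in place of DMSO. Values of C312S under THZ1, and differences between the lines that use either group, rest on these libraries and have no version without them here. The line's label was checked against blood cell genes: 12 of 12 were at or under 1 FPKM in every group, with a summed level of 0.452 to 1.39 FPKM. Of 12 epithelial and fibroblast genes 7 were at or under 1 FPKM in every group, EPCAM, CDH1 and COL3A1 among them, and 2 were over 1 FPKM in every group, VIM at 215 to 501 FPKM and KRT18 at 25.3 to 40.5. The C312S change itself cannot be read from a table of gene levels.

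The 2 noncoding RNAs lie side by side on chromosome 11, NEAT1 at chr11:65422774-65445540 and MALAT1 at chr11:65497688-65506516, both on the plus strand and 52147 bases apart (GENCODE v29, GRCh38; the authors' build was hg19). NONO lies at chrX:71283192-71301168 on the plus strand, SFPQ at chr1:35176378-35193148 and PSPC1 at chr13:19674752-19783019 on the minus strand. These are whole gene spans with exons and introns. The annotated NEAT1 transcripts range from short forms of 2994 bases (NEAT1-208) and 3441 bases to the long form of 22743 bases (NEAT1-202). Their ends are shown because polyadenylated RNA was selected, so that the ends bear on which transcript a library holds. The short form NEAT1-208 ends in a polyadenylation signal, AATAAA, in capitals in its last 60 bases, 11 bases from the first A of the signal to the end.
NEAT1-208 end: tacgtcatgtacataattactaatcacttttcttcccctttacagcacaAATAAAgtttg
The long form holds an internal run of 22 A, in capitals, which begins at base 18046 of 22743 and is shown in a window of bases 18022 to 18091.
NEAT1-202 A run: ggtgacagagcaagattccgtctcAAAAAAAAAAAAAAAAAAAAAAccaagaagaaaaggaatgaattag
Its last 60 bases hold 0 copies of AATAAA. In capitals are a stretch of 16 bases and one of 11 that also stand, in the same order, near the end of MALAT1-202 (bases 8297 to 8359 of 8708). In the MALAT1 window the second stretch is the last part of a longer A-rich run.
NEAT1-202 end: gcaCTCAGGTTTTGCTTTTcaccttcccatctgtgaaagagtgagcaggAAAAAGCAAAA
MALAT1-202 near its end: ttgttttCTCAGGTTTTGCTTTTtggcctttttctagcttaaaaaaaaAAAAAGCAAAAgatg
These paired U-rich and A-rich tracts are among the parts of the triple helix known from both RNAs, and not all of it is shown. A tRNA-like small RNA is annotated from 1 base after the end of NEAT1, at chr11:65445541-65445598, and another inside the annotated MALAT1 at chr11:65506117-65506173. The table gives 1 value per gene, so the short and long NEAT1 cannot be separated in it, and a long RNA with no tail may be captured in part through its A run.

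In WT cells NEAT1 was lower than with DMSO under all 6 treatments. DMSO libraries held 17.7, 17.5 and 19.1 FPKM (18.1 ± 0.892, SD, n = 3). With YKL at 500 nM they held 8.2, 8.78 and 9.06, and with YKL at 2 µM 11.6, 11.6 and 10.8. Every YKL library lay below every DMSO library, and the higher dose left more NEAT1 than the lower. THZ1 libraries held 9.34, 9.97 and 10.4 FPKM, and THZ531 libraries 15.4, 13.7 and 14.9. The combination at 500 nM gave 9.39, 12.2 and 10.3, and that at 2 µM 8.41, 6.75 and 8.81. None of these libraries reached the lowest DMSO library, with THZ531 nearest to it and the combination at 2 µM farthest. In bulk RNA, less RNA per cell and fewer cells that hold it cannot be told apart.

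The log2 change of NEAT1, on the scale of log2(FPKM + 1), was −0.98 with YKL at 500 nM, −0.63 with YKL at 2 µM, −0.29 with THZ531, −0.81 with THZ1, −0.72 with the combination at 500 nM and −1.09 with that at 2 µM, each with a standard error of 0.0811. All 6 passed the test, limma with Benjamini-Hochberg adjustment over 12816 genes, with adjusted p between 1.43e-13 for the combination at 2 µM and 0.00471 for THZ531. Many genes passed it: 63% of all genes tested with YKL at 500 nM, 65.3% with YKL at 2 µM, 46.9% with THZ531, 68.8% with THZ1, 68.2% with the combination at 500 nM and 77.1% with that at 2 µM. Against those shares, 5, 4, 3, 4, 5 and 5 of the 5 genes were called, so a call alone says little here and the size of a change says more. With YKL at 500 nM, 1.83% of the genes tested fell further than NEAT1. Spike-in scaling ended the THZ531 call (−0.22, adjusted p = 0.199), and the other 5 held under scaling by summed FPKM, by median ratio and by spike-in.

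Scaling moves the zero line of these comparisons. In the order above, spike-in scaling shifted the median gene to −0.58, −0.10, 0.08, −1.99, −0.34 and −0.93, and scaling by summed FPKM to 0.20, 0.25, 0.08, −0.15, 0.14 and −0.03. Of the genes called with YKL at 500 nM 49.7% were higher as deposited, 77.1% by summed FPKM and 5.13% by spike-in. Over the 6 treatments these shares ranged from 48.7% to 51.2%, from 32.5% to 78.5% and from 0.257% to 56.3%. The changes given here are thus relative to the other genes of a library, and the values of the 5 genes that a scaling turned are given beside them or in the closing section.

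**Figure D1:**
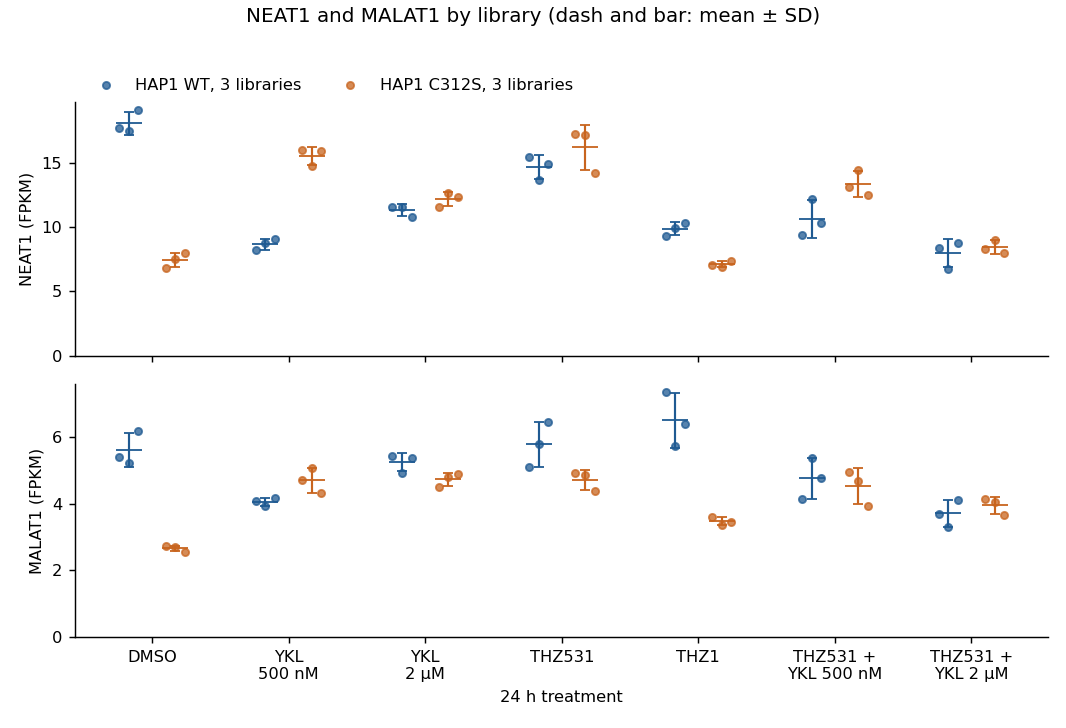
NEAT1 (upper) and MALAT1 (lower) in FPKM on a linear axis for each of the 42 libraries, by treatment, with WT and C312S in separate colours and a bar at the mean of 3 libraries. WT DMSO holds the highest NEAT1 mean, 18.1 FPKM, while C312S DMSO, at 7.46, is lower than 5 of the 6 treated C312S groups.

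In WT the YKL dose moved NEAT1 in opposite directions with and without THZ531. From 500 nM to 2 µM of YKL alone NEAT1 rose by 0.35 (adjusted p = 0.00727 by limma), where 6.18% of genes tested were called in either direction. Without replicate 1 of WT YKL 500 nM the rise was 0.31 and missed the threshold (adjusted p = 0.0577). Between the same doses in the combination NEAT1 fell by 0.37 (adjusted p = 0.000253 by limma), against 56.9% of genes called. Adding THZ531 to YKL changed NEAT1 by 0.26 at 500 nM (adjusted p = 0.009 by limma, 47.8% of genes called) and by −0.46 at 2 µM (adjusted p = 7.82e-06 by limma, 71% called). The first of these rests on replicate 2 of the combination, at 12.2 FPKM, and was 0.16 without it (adjusted p = 0.112).

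MALAT1 moved less than NEAT1 in WT and not always the same way. With DMSO its libraries held 5.39, 5.21 and 6.17 FPKM (5.59 ± 0.508, SD, n = 3). YKL at 500 nM gave 4.08, 3.93 and 4.17, while YKL at 2 µM gave 5.43, 4.92 and 5.37. The lower dose lay below all DMSO libraries and the higher dose overlapped them. THZ1 libraries, at 7.35, 5.73 and 6.39 FPKM, reached above DMSO, and those of the combination at 2 µM, at 3.70, 3.30 and 4.12, lay below. MALAT1 fell with YKL at 500 nM (−0.38, adjusted p = 0.000204 by limma), with the combination at 2 µM (−0.49, 3.92e-06) and with that at 500 nM (−0.20, 0.0367), each change with a standard error of 0.083. The last of these overlapped DMSO, and leaving out WT DMSO replicate 3 or replicate 1 or 3 of the combination ended it (adjusted p up to 0.247). The fall with YKL at 500 nM did not pass under scaling by summed FPKM (−0.19, adjusted p = 0.0588). Of the genes tested, 15.5% fell further than MALAT1 with YKL at 500 nM. For the combinations at 2 µM and 500 nM this share was 20.5% and 32.0%. With YKL at 2 µM (−0.08, interval −0.25 to 0.09), THZ531 (0.04, −0.13 to 0.21) and THZ1 (0.18, 0.01 to 0.35) MALAT1 was not called, and the THZ1 value turned to −1.76 with spike-in scaling.

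The dose pattern of MALAT1 had the signs of NEAT1's. It was 0.30 higher with YKL at 2 µM than at 500 nM (adjusted p = 0.0245 by limma), a call that each of 4 libraries left out ended (adjusted p up to 0.105), and changed by −0.29 from the combination at 500 nM to that at 2 µM (adjusted p = 0.00364). Over the 14 group means, the Pearson correlation of NEAT1 with MALAT1 was 0.67, as a description, since the groups share lines, vehicle and normalization.

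The ratio of NEAT1 to MALAT1, 2 RNAs of the same library and so free of its scaling, was higher in WT with DMSO than in each treated WT group. The DMSO libraries lay between 3.10 and 3.35 (3.25 ± 0.131, SD, n = 3). It was 2.14 ± 0.114 with YKL at 500 nM, 2.17 ± 0.179 with YKL at 2 µM, 2.57 ± 0.402 with THZ531, 1.54 ± 0.244 with THZ1, 2.23 ± 0.0588 with the combination at 500 nM and 2.15 ± 0.116 with that at 2 µM. All 18 treated WT libraries lay below the 3 with DMSO, so that NEAT1 was lower relative to MALAT1 in each. These comparisons share the same 3 DMSO libraries and so do not repeat each other independently. The log2 differences were −0.60, −0.59, −0.35, −1.08, −0.54 and −0.59 in that order. Each had p = 0.1 by a two-sided exact permutation test, the smallest that 3 against 3 libraries can give, and 0.164 adjusted over 23 comparisons of the ratio. The C312S line under DMSO, at 2.81 ± 0.299, overlapped WT (log2 difference −0.21), while under YKL at 500 nM its ratio of 3.34 ± 0.396 lay above all WT libraries of that treatment (0.64, exact permutation p = 0.1). The highest mean of the 14 groups was that of C312S with THZ531, 3.44 ± 0.161, a description, since the choice of the genes used this group. Its libraries (3.25 to 3.54) overlapped those of C312S with YKL at 500 nM and of WT with DMSO. C312S with the combination at 2 µM, also used in that choice, was at 2.14 ± 0.115.

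**Figure D2:**
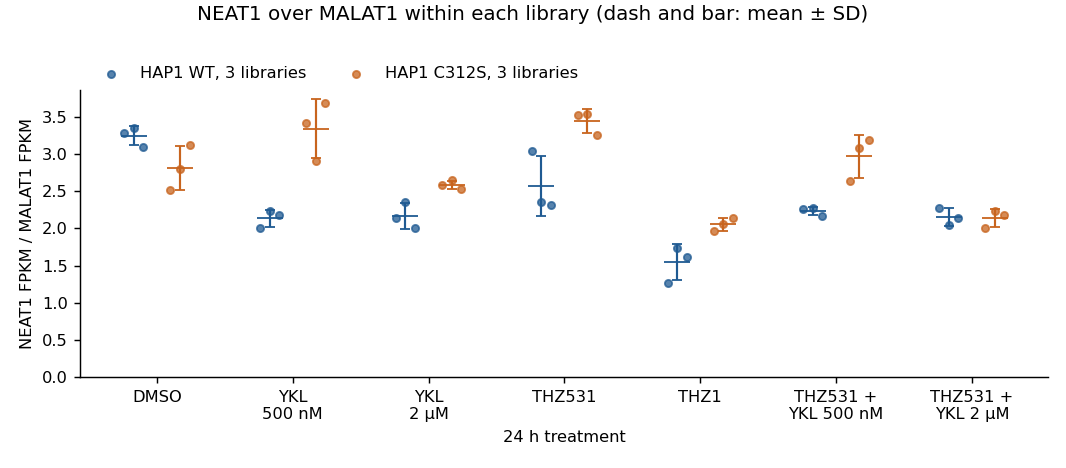
Ratio of NEAT1 to MALAT1 FPKM (no unit, linear axis) in each library, by treatment, with WT and C312S in separate colours and a bar at the mean of 3. The WT DMSO libraries, from 3.10 to 3.35, lie above every treated WT library, and WT THZ1 has the lowest mean, 1.54.

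NONO, a DBHS protein that also acts in transcription and DNA repair, was a far more abundant transcript than either noncoding RNA. Its WT DMSO libraries held 391, 367 and 364 FPKM (374 ± 15.0, SD, n = 3), against 177, 177 and 170 with YKL at 500 nM and 162, 168 and 163 with YKL at 2 µM. The YKL libraries were all far below the DMSO libraries. NONO fell at both doses (−1.09 and −1.18 on the log2 scale, standard error 0.028, adjusted p = 1.65e-24 and 1.21e-25 by limma), and 1.39% and 1.30% of the genes tested fell further. With THZ531 and THZ1 it was at 352 ± 5.27 and 334 ± 2.48 FPKM, smaller changes of −0.09 (adjusted p = 0.0144 by limma) and −0.16 (9.33e-06). These are relative to the other genes, and by spike-in the median gene with THZ1 was at −1.99. Leaving out replicate 1 of WT DMSO ended the THZ531 call (−0.05, adjusted p = 0.145), as did leaving out replicate 1 of WT THZ531 (−0.08, 0.0523).

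SFPQ, a DBHS protein required for paraspeckle assembly and a splicing factor, followed NONO. WT DMSO libraries held 243, 233 and 231 FPKM (236 ± 6.20, SD, n = 3), and those with YKL 104, 107 and 102 at 500 nM and 93.9, 92.9 and 95.2 at 2 µM. All YKL libraries lay below the DMSO libraries. SFPQ fell at both doses (−1.17 and −1.32, standard error 0.031, adjusted p = 2.06e-24 and 6.65e-26 by limma). From 500 nM to 2 µM of YKL it fell further (−0.15, adjusted p = 0.00227 by limma), which spike-in scaling turned to 0.39, while NONO (−0.09, adjusted p = 0.0669) and PSPC1 (−0.08, 0.328) were not called. THZ1 lowered SFPQ to 182 ± 2.55 (−0.37, adjusted p = 2.99e-12 by limma), and with THZ531 it was 241 ± 5.14 and not called (0.03, interval −0.03 to 0.10).

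PSPC1, the least abundant of the 3 DBHS transcripts, went up with THZ531 and THZ1. WT DMSO libraries held 53.6, 56.5 and 54.8 FPKM (54.9 ± 1.45, SD, n = 3), those with THZ531 80.3, 80.8 and 83.2 and those with THZ1 78.9, 87.3 and 85.3. Every library of both compounds was above every DMSO library. PSPC1 rose by 0.56 and 0.60 (standard error 0.043, adjusted p = 9.97e-12 and 1.5e-13 by limma), and the THZ1 value turned to −1.78 with spike-in scaling. With THZ531, 98.8% of the genes tested had a lower change than PSPC1, and with THZ1 91.2%. With YKL it fell, to 40.3 ± 1.79 FPKM at 500 nM and 38.1 ± 0.896 at 2 µM (−0.44 and −0.51, adjusted p = 3.03e-10 and 6.86e-12 by limma).

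In the combinations the transcripts of the 3 proteins kept different parts of these changes. NONO was at 196 ± 5.66 and 216 ± 1.54 FPKM at 500 nM and 2 µM of YKL (−0.93 and −0.79 against DMSO), and SFPQ at 122 ± 4.55 and 116 ± 5.83 (−0.94 and −1.02), with adjusted p from 1.07e-22 to 3.64e-21 for NONO and at most 6.19e-22 for SFPQ by limma. PSPC1 was at 59.2 ± 2.69 and 68.4 ± 3.15 (0.10 and 0.31, adjusted p = 0.034 and 1.39e-07 by limma), between its levels with YKL alone and with THZ531 alone, and both values turned negative under spike-in scaling (−0.28 and −0.80). The smaller of these rises was lost without WT DMSO replicate 1 or 3, or replicate 2 of the combination (adjusted p up to 0.209). Once each library's trend with GC content was removed, that rise was 0.0063 (adjusted p = 0.904 by limma). PSPC1 rose by 0.54 when THZ531 was added to YKL at 500 nM and by 0.82 at 2 µM (adjusted p = 3.67e-11 and 1.3e-15 by limma), the second −0.17 with spike-in scaling.

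**Figure D3:**
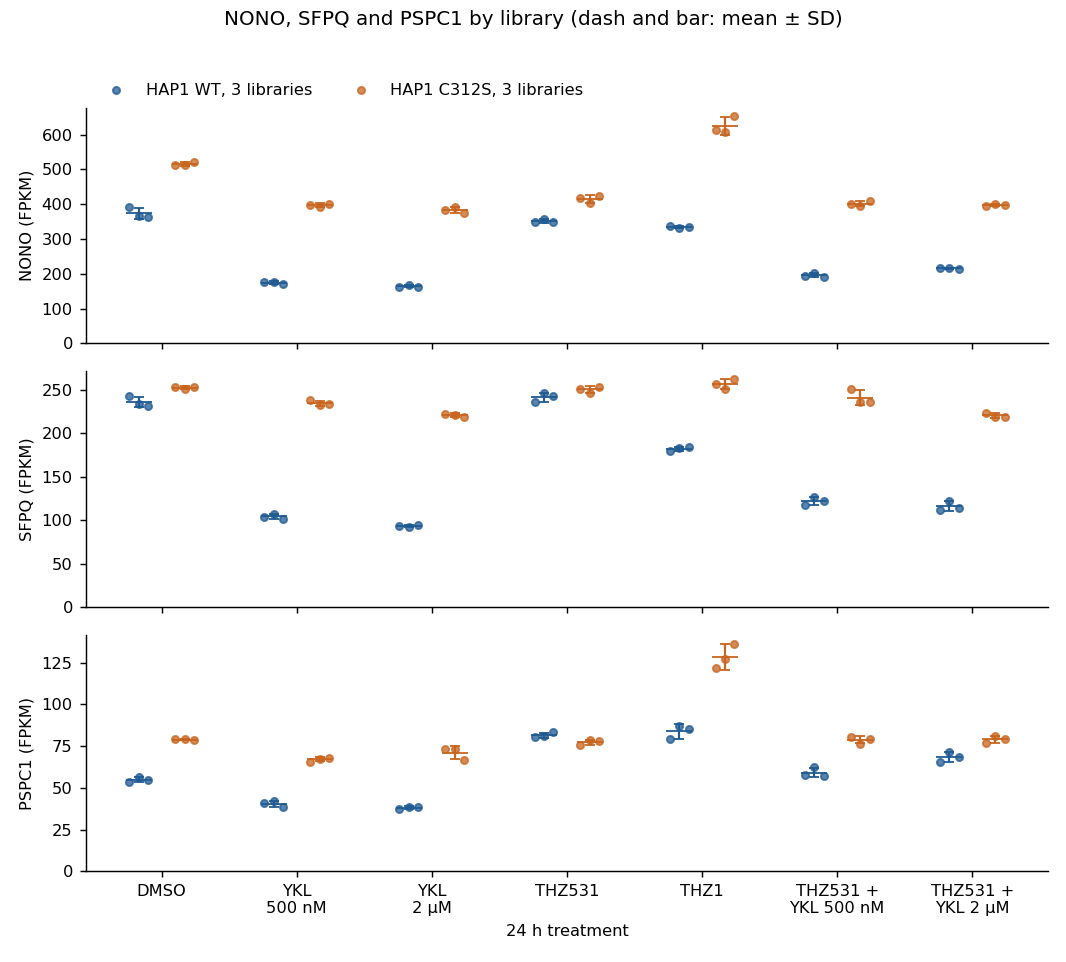
NONO, SFPQ and PSPC1 in FPKM (linear axes from 0) for each of the 42 libraries, by treatment, with WT and C312S in separate colours and a bar at the mean of 3. WT NONO and SFPQ split into groups without YKL (means of 334 to 374 and 182 to 241 FPKM) and groups with YKL (164 to 216 and 94.0 to 122), and PSPC1 is highest with THZ1 in both lines.

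**Figure D4:**
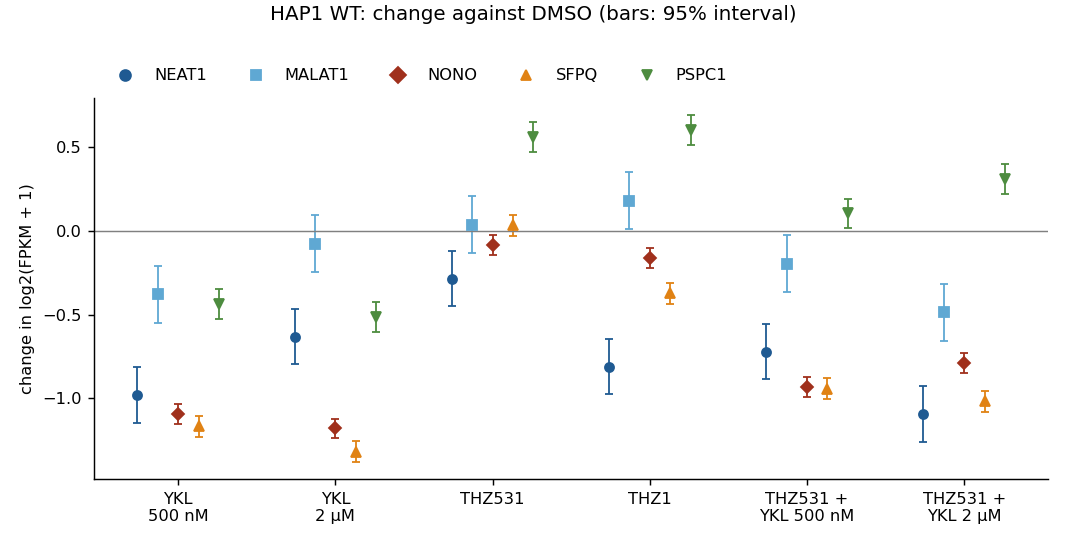
Change of the 5 genes against DMSO in WT on the log2(FPKM + 1) scale, by treatment, with 95% intervals from limma and a line at 0. NEAT1 is below 0 with all 6 treatments, from −0.29 with THZ531 to −1.09 with the combination at 2 µM, and PSPC1 is above 0 in the 4 groups that received THZ531 or THZ1 and below 0 with YKL alone.

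The promoters of NONO and PSPC1 are shown because PSPC1 did not always move with NONO. RefSeq windows (GRCh38.p14) of 250 bases before to 50 after a start were matched for 3 of the 5 genes, among 35116 windows. NEAT1 and SFPQ had no window, so the promoters of NONO and SFPQ cannot be compared here. Both strands were searched for 5 motifs. The TATA box was read as TATAAA and the CCAAT box by its own letters. The GC box was read as GGGCGG, the core of an NRF1 site as GCGCAT and a YY1-type element as GCCATTT. Matches are in capitals, and overlapping NRF1 cores merge into 1 run. The NONO window, at chrX:71283385-71283684 on the plus strand, has 3 CCAAT boxes, 2 NRF1 cores and 2 YY1-type elements. The PSPC1 window, at chr13:19782896-19783195 on the minus strand, has 3 NRF1 cores and 1 YY1-type element. Of all windows, 34.6% hold a CCAAT box, 7.86% an NRF1 core and 4.39% a YY1-type element.
NONO promoter: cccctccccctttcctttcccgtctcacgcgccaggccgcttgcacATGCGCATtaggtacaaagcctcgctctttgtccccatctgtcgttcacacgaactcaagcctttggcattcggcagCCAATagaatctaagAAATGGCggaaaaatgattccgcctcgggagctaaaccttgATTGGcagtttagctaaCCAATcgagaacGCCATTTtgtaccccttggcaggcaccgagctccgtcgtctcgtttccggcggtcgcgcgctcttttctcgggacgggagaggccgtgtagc
PSPC1 promoter: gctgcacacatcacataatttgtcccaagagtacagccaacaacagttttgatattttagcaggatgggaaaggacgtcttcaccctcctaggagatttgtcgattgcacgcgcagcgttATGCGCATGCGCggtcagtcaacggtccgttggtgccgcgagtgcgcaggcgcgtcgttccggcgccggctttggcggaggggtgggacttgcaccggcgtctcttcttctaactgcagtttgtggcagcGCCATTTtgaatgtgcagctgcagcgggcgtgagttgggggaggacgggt
MALAT1 has 2 windows, and that at chr11:65498795-65499094 on the plus strand holds a TATA box 30 bases before the start, a motif in 11.5% of all windows.
MALAT1 promoter: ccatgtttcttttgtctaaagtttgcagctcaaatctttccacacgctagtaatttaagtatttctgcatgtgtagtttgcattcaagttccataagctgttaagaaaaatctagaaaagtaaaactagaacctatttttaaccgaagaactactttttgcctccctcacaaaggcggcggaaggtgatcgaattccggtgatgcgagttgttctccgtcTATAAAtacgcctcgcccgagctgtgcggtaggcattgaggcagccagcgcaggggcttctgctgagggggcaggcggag
The other window holds 5 GC boxes, a motif in 45.0% of all windows, and 0 TATA boxes. A match describes letters in the window and no binding.

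The gene lists that follow are read against the shares of all genes called higher and lower in WT: 31.3% and 31.7% with YKL at 500 nM, 31.8% and 33.5% at 2 µM, 24% and 22.9% with THZ531, 34% and 34.8% with THZ1, 34% and 34.2% with the combination at 500 nM and 38.9% and 38.1% with that at 2 µM. Over 7 lists 76, 79, 51, 85, 79 and 93 of 110 genes tested were called. With a minimum change of 1.5-fold they were 33, 36, 1, 25, 35 and 44, where 13.6%, 15.9%, 4.23%, 19.1%, 16.8% and 31.2% of all genes passed. Directions in these lists depend on the scaling: by spike-in, 0 genes of the 7 lists were called higher with YKL at 500 nM, with THZ1 or with the combination at 2 µM.

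Transcripts of the other core paraspeckle proteins fell with YKL in WT as NONO and SFPQ did. All 6 of them, RBM14, HNRNPK and SMARCA4 included, fell at 500 nM and at 2 µM, with median changes of −0.60 and −0.67 where the medians of all genes were −0.0019 and −0.0032. DAZAP1, an RNA-binding protein, went from 104 to 35.4 FPKM at 500 nM (−1.53, adjusted p = 3.02e-20 by limma), and HNRNPH3, a splicing regulator, from 131 to 51.7 (−1.32, 8.74e-22). Scaling by summed FPKM left 4 of the 6 falls at each dose. With THZ531 1 rose and 1 fell (median 0.05). With THZ1 4 rose and 2 fell (median 0.14), among them RBM14 from 30.3 to 47.0 FPKM (0.62), a split that spike-in scaling turned to 6 falls (median −2.26). In the combinations 5 of 6 fell, with medians of −0.64 and −1.09, and HNRNPH3 was at 41.0 FPKM (−1.65) with that at 2 µM.

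Other proteins found in paraspeckles went the same way less uniformly. Of 30 listed, 29 were tested, and 2 rose and 20 fell with YKL at 500 nM (median −0.41), 4 and 19 at 2 µM (−0.54), 6 and 7 with THZ531 (0.03), 10 and 12 with THZ1 (−0.03), 4 and 18 with the combination at 500 nM (−0.31) and 4 and 19 with that at 2 µM (−0.46). By summed FPKM 6 rose and 15 fell with YKL at 500 nM, 12 and 3 with THZ531 and 5 and 18 with THZ1, and by spike-in 29 fell with YKL at 500 nM and 29 with THZ1. EWSR1, an RNA-binding protein, went from 188 to 55.5 FPKM with YKL at 500 nM (−1.74), and HNRNPH1, a splicing regulator, from 219 to 76.3 (−1.51). AKAP8L, an anchoring protein of the nucleus, was an exception and rose from 33.1 to 41.3 (0.31). HNRNPA1, another splicing regulator, went from 493 to 99 FPKM with the combination at 2 µM (−2.30).

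Among 25 nuclear speckle proteins, the bodies that hold MALAT1, 3 rose and 15 fell with YKL at 500 nM (median −0.16), 3 and 16 at 2 µM (−0.26), 6 and 2 with THZ531 (0.02), 14 and 8 with THZ1 (0.18), 5 and 14 with the combination at 500 nM (−0.17) and 5 and 18 with that at 2 µM (−0.35). With scaling by summed FPKM the YKL medians turned to 0.08 and 0.03 (10 rose and 11 fell, and 9 and 10), and THZ1 gave 9 rises and 10 falls (0.01). By spike-in 0 rose and 25 fell with THZ1 (−2.15). SRSF2, a serine and arginine rich splicing factor, went from 283 to 127 FPKM with YKL at 500 nM (−1.14), DDX39B, an RNA helicase of splicing and export, from 257 to 118 (−1.11), and SF3B1, of the spliceosome's U2 particle, rose from 128 to 175 (0.45). The 12 factors that act on the ends of MALAT1 and the long NEAT1, chiefly RNase P subunits, moved in both directions: 5 rose and 2 fell with YKL at 500 nM (median −0.01), 2 and 6 at 2 µM (−0.08), 3 and 4 with THZ531 (−0.04), 3 and 6 with THZ1 (−0.16), 3 and 4 with the combination at 500 nM (0.02) and 5 and 5 with that at 2 µM (−0.05). These counts moved with the scaling: with YKL at 500 nM 9 rose and 1 fell by summed FPKM (0.22) and 0 rose and 10 fell by spike-in (−0.65), and with THZ1 3 rose and 8 fell by summed FPKM and 0 and 12 by spike-in.

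Falls of long noncoding RNAs with YKL were not limited to NEAT1 and MALAT1. Of 22 others listed 18 were tested, and 0 rose and 10 fell with YKL at 500 nM (median −0.59), 2 and 10 at 2 µM (−0.76), 0 and 8 with THZ531 (−0.21), 4 and 8 with THZ1 (0.04), 1 and 10 with the combination at 500 nM (−0.40) and 3 and 10 with that at 2 µM (−0.60). The THZ1 median turned to −0.07 by summed FPKM and to −2.02 by spike-in. DANCR went from 306 to 107 FPKM with YKL at 500 nM (−1.51) and SNHG1, which carries small nucleolar RNAs in its introns, from 229 to 68.8 (−1.72). ZFAS1, also a host gene, went from 293 to 465 with THZ1 (0.67).

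Of 9 factors reported to act on the NEAT1 promoter 8 were tested, and 5 rose and 2 fell with YKL at 500 nM (median 0.18), 4 and 2 at 2 µM (0.19), 3 and 3 with THZ531 (0.02), 3 and 3 with THZ1 (−0.01), 4 and 3 with the combination at 500 nM (0.09) and 4 and 4 with that at 2 µM (−0.02). By spike-in 0 rose and 6 fell with YKL at 500 nM (−0.42), 0 and 8 with THZ1 (−2.23), 1 and 4 with the combination at 500 nM (−0.29) and 0 and 8 with that at 2 µM (−1.11). With YKL at 500 nM HIF1A, the hypoxia factor, rose from 58.0 to 75.7 FPKM (0.38), while E2F1, which drives genes of DNA replication, went from 25.6 to 14.2 and fell (−0.81). Of 12 neighbouring genes of NEAT1 and MALAT1 on chromosome 11 that were tested, 1 rose and 5 fell with YKL at 500 nM (median −0.03), EHBP1L1 among them from 7.22 to 3.19 FPKM (−0.97). At 2 µM 1 rose and 4 fell (−0.01). By summed FPKM these became 4 rises and 1 fall (0.17) and 6 and 2 (0.22), and by spike-in 0 and 11 at 500 nM (−0.61) and 0 and 3 at 2 µM (−0.10). With THZ531 0 rose and 7 fell (−0.25), with THZ1 0 and 8 (−0.26) and with the combination at 500 nM 0 and 8 (−0.30). With the combination at 2 µM 0 rose and 11 fell (−0.59). Once each library's trend with GC content was removed, of 11 genes 3 rose and 2 fell with THZ531 (−0.01), 1 and 5 with THZ1 (−0.17), 1 and 3 with the combination at 500 nM (−0.05) and 2 and 6 with that at 2 µM (−0.12).

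When YKL was added to THZ531 in WT, the 5 genes were lower at both doses. At 500 nM NEAT1 changed by −0.44 against THZ531 alone, MALAT1 by −0.23, NONO by −0.85, SFPQ by −0.98 and PSPC1 by −0.46, with adjusted p from 5.16e-22 for SFPQ to 0.0154 for MALAT1 by limma. All 5 were called, where 61.1% of genes were. MALAT1 overlapped and lost its call without WT THZ531 replicate 3 or replicate 1 of the combination (adjusted p up to 0.136). At 2 µM the changes were −0.81, −0.52, −0.70, −1.05 and −0.25, with adjusted p of at most 5.98e-06 by limma and 73.5% of genes called.

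In C312S none of the 4 genes tested was called when YKL was added to THZ531 at 500 nM. NEAT1 libraries held 17.3, 17.2 and 14.2 FPKM with THZ531 and 13.1, 14.4 and 12.5 with the combination at 500 nM, a change of −0.26 with overlapping libraries, given with no test. MALAT1 (−0.05, adjusted p = 0.927 by limma), NONO (−0.05, 0.689), SFPQ (−0.06, 0.662) and PSPC1 (0.03, 0.921) were not called, where 0.577% of genes were. Their 95% intervals reach down to −0.22, −0.11, −0.12 and −0.06. The change of this addition was higher in C312S than in WT by 0.80 for NONO, 0.92 for SFPQ and 0.48 for PSPC1 (adjusted p = 4.44e-16, 9.43e-17 and 1.62e-07 by limma; 41.5% of genes called), and not by the test for MALAT1 (0.18, 0.218).

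At 2 µM in C312S, the contrast that chose the genes, NEAT1 went from 16.2 ± 1.73 to 8.44 ± 0.544 FPKM, with libraries of 8.30, 9.04 and 7.97. NEAT1 thus changed by −0.86, MALAT1 by −0.21, NONO by −0.06, SFPQ by −0.18 and PSPC1 by 0.03. In this comparison 34.8% of genes were called. The SFPQ libraries held 251, 246 and 254 FPKM with THZ531 and 223, 219 and 219 with the combination. The values of the same addition in WT were −0.81 for NEAT1, −0.70 for NONO and −1.05 for SFPQ. The difference between lines was −0.06 for NEAT1, 0.32 for MALAT1, 0.64 for NONO, 0.87 for SFPQ and 0.28 for PSPC1, as a description (53.1% of genes called). As a description, the median change of the 6 other core paraspeckle proteins in C312S was −0.30 at 2 µM and −0.12 at 500 nM, and that of the nuclear speckle proteins at 2 µM was −0.05. In WT the core proteins had 6 and 5 falls at 2 µM and 500 nM (medians −1.05 and −0.60), and the nuclear speckle proteins 5 rises and 19 falls, and 4 and 15. Of all genes in WT, 38.3% were higher and 35.3% lower at 2 µM and 31.5% and 29.7% at 500 nM.

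**Figure D5:**
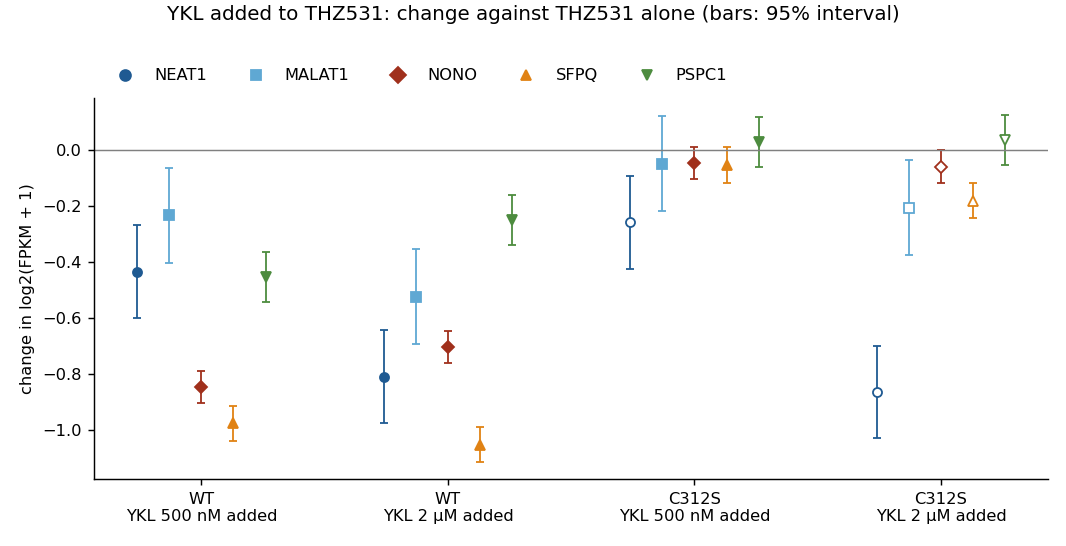
Change of the 5 genes when YKL at 500 nM or 2 µM was added to THZ531, in WT and C312S, on the log2(FPKM + 1) scale with 95% intervals from limma and a line at 0. Open markers and their intervals are given as a description with no test, since the choice of the genes used these groups. NEAT1 is at −0.81 in WT and −0.86 in C312S at 2 µM, and SFPQ at −1.05 and −0.18.

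Against YKL alone, adding THZ531 in C312S raised PSPC1 by 0.23 at 500 nM and 0.16 at 2 µM (adjusted p = 0.000534 and 0.00795 by limma), where 22.1% and 29.3% of genes were called. The second was lost without C312S YKL 2 µM replicate 3 (0.11, adjusted p = 0.0688). The value at 2 µM turned to −0.28 under spike-in scaling. NEAT1 was not called at 500 nM (−0.21, adjusted p = 0.0622 by limma) and changed by −0.49 at 2 µM, the latter with no test. NONO, SFPQ and MALAT1 were not called at either dose. From 500 nM to 2 µM of YKL alone in C312S NEAT1 fell by 0.33 (adjusted p = 0.0178 by limma, 3.67% of genes called), where it rose in WT. The difference between the lines in this step was not tested. Each of 3 libraries left out ended that call (adjusted p up to 0.0913). Between combination doses SFPQ fell by 0.13 (adjusted p = 0.00509 by limma, 16.9% of genes called), and NEAT1 changed by −0.61, with no test.

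Under DMSO, where the C312S libraries stand apart, both noncoding RNAs were lower in C312S than in WT and the transcripts of the 3 proteins higher as deposited. NEAT1 there held 6.85, 7.55 and 7.97 FPKM (7.46 ± 0.562, SD, n = 3), below every WT DMSO library (log2 difference −1.18, adjusted p = 2.79e-14 by limma). MALAT1 held 2.72, 2.70 and 2.56 (−0.85, 8.02e-11). NONO was at 515 ± 4.80 FPKM (0.46), SFPQ at 252 ± 1.5 (0.10) and PSPC1 at 78.9 ± 0.297 (0.52). All 5 genes were called, as were 79.2% of genes. The noncoding RNAs were lower in C312S under each scaling, while NONO (−0.05 and −0.98) and SFPQ (−0.41 and −1.35) turned negative under scaling by summed FPKM and by spike-in, and PSPC1 (−0.91) by spike-in. Those 2 scalings put the median gene at −0.36 and −1.13. Of the genes called, 21.8% and 0.379% were then higher in C312S, so a negative value under them is shared with most genes. The part of the library difference in these values was not tested.

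The lines were also compared under each treatment. With YKL at 500 nM C312S was higher by 0.78 for NEAT1, 1.18 for NONO, 1.16 for SFPQ and 0.72 for PSPC1 (adjusted p at most 8.56e-10 by limma; 63.6% of genes called), and by 0.17 for MALAT1, which was not called (0.0756). At 2 µM the transcripts of the 3 proteins were 1.22, 1.22 and 0.88 higher (adjusted p at most 1.53e-17 by limma, 66.1% of genes called). NEAT1 (0.10) and MALAT1 (−0.12) were not called. With THZ531 alone NONO was 0.24 higher (adjusted p = 8.94e-08 by limma; 30.4% of genes called), SFPQ (0.05) and PSPC1 (−0.08) were not called, and MALAT1 was lower (−0.24, 0.0254), a call that each of 3 libraries left out ended (adjusted p up to 0.166). With THZ1 the lines differed in all 5 genes (79% of genes called), NEAT1 by −0.42, 0.22 under spike-in scaling, and MALAT1 by −0.74, with NONO 0.90, SFPQ 0.49 and PSPC1 0.61 higher. In the combinations NONO (1.03 and 0.88), SFPQ (0.97 and 0.92) and PSPC1 (0.41 and 0.21) were higher in C312S (62.7% and 69.1% of genes called). NEAT1 was also higher there at 500 nM (0.31, adjusted p = 0.00149 by limma) and is given with no test at 2 µM (0.08), and MALAT1 was not called at either dose (−0.06 and 0.07).

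Against its own DMSO libraries, C312S showed NEAT1 higher with YKL at 500 nM (0.97, adjusted p = 2.42e-12 by limma) and at 2 µM (0.64, 1.77e-08), and with the combination at 500 nM (0.76, 6.81e-10). THZ531 (1.02) and the combination at 2 µM (0.16) are given with no test. With THZ1 NEAT1 was not called (−0.06, 0.563). MALAT1 was higher with all 6 treatments, by 0.29 with THZ1 to 0.65 with YKL at 2 µM (adjusted p at most 0.00307 by limma). Of all genes, 76.4%, 75.8%, 74.1%, 63.6%, 73.4% and 68.7% were called with YKL at 500 nM, YKL at 2 µM, THZ531, THZ1 and the combinations at 500 nM and 2 µM. NONO was lower in the 5 groups other than THZ1 (−0.31 to −0.43), falls that turned upward under scaling by summed FPKM and by spike-in, and 0.28 higher with THZ1 (adjusted p = 6.18e-10 by limma). PSPC1 was 0.69 higher with THZ1 (9.81e-15), at 128 ± 7.51 FPKM. It was called lower with YKL at 500 nM (−0.23) and at 2 µM (−0.15). SFPQ was called lower with YKL at 500 nM (−0.10), with YKL at 2 µM (−0.19) and with the combination at 2 µM (−0.19). These falls of PSPC1 and SFPQ also turned upward under scaling by summed FPKM and by spike-in.

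Without the DMSO libraries, with C312S YKL 500 nM in their place, NEAT1 had no called rise in the 3 C312S groups tested. It was −0.33 with YKL at 2 µM (adjusted p = 0.0178 by limma), −0.21 with the combination at 500 nM (0.0622) and −1.03 with THZ1 (4.66e-13), and, with no test, 0.05 with THZ531 and −0.81 with the combination at 2 µM. MALAT1 was within 0.05 of YKL 500 nM in 3 groups, and lower with the combination at 2 µM (−0.20, 0.0487) and with THZ1 (−0.35, 0.000344). NONO was higher with THZ1 (0.65, adjusted p = 3.27e-19), and in the other 4 groups its changes were between −0.05 and 0.06 and not called. PSPC1 was higher with THZ531 (0.20, adjusted p = 0.00112 by limma) and THZ1 (0.92, 1.92e-18). It was also higher with the combinations at 500 nM (0.23, 0.000534) and 2 µM (0.23, 8.73e-05), and not called with YKL at 2 µM (0.08). SFPQ was higher with THZ531 (0.09, 0.0248) and THZ1 (0.13, 0.000331), and lower with the combination at 2 µM (−0.09, 0.0202). Leaving out C312S THZ1 as well, the group that stands apart with DMSO, NONO ranged from 384 to 415 FPKM over 5 C312S groups and SFPQ from 221 to 250. Their WT ranges over the same 5 treatments were 164 to 352 and 94.0 to 241.

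Across the 14 groups NEAT1 spanned 2.54-fold, from 7.12 ± 0.220 FPKM in C312S with THZ1 to 18.1 in WT with DMSO, with C312S THZ531 (16.2), C312S YKL 500 nM (15.6) and WT THZ531 (14.7) next below the top. In that order 11 of 13 neighbouring groups overlapped. MALAT1 spanned 2.44-fold, from 2.66 ± 0.0885 FPKM in C312S with DMSO to 6.49 ± 0.817 in WT with THZ1, and 12 of 13 neighbours overlapped. NONO spanned 3.80-fold (5 of 13 overlapped), SFPQ 2.73-fold (7) and PSPC1 3.37-fold (8).

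The genes most like NEAT1 over the 14 group means of log2(FPKM + 1), among 12363 genes, were AEBP2 (Pearson r 0.96), MUM1 (0.94), SH3BP1 (0.94), SPIRE1 (0.93) and IQSEC1 (0.92). AEBP2, a partner of Polycomb repressive complex 2, went from 14.8 FPKM in WT with DMSO to 8.75 with the combination at 2 µM, and was at 9.51 in C312S with DMSO and 15.4 with THZ531. Those most like MALAT1 were LRP6 (0.98), a Wnt co-receptor, SMURF1 (0.97), a ubiquitin ligase, PODXL (0.96), POGZ (0.95) and LSS (0.95). Among the 5 genes, NONO and SFPQ were most alike (0.95), then NONO and PSPC1 (0.83) and SFPQ and PSPC1 (0.74), while NEAT1 and NONO had r = 0.05. These likenesses share libraries and normalization and are given as descriptions.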

How the data were processed

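Polyadenylated RNA of 42 HAP1 libraries, selected and prepared with a stranded kit per the labels' protocols, was deposited by the authors as FPKM per gene. Tools and build, per the submitters' processing notes, were Cuffnorm, Cufflinks 2.2.1, HISAT2 2.0.4 and hg19, with no order given. The normalization setting and filters are not given in the sources used here. It holds 26228 genes and 92 spike-in RNAs. Columns were matched to samples by description, and 0 were left unmatched. No read counts are in the table and no count model was used. Relative depth was read from the spacing of values under 0.1 FPKM (a 9.39-fold range between libraries) and made absolute with transcript lengths, so read numbers are estimates. How reads of overlapping genes or near-identical copies were split is not given.

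Changes were taken on log2(FPKM + 1), which understates those of low genes, and the test was that of limma (version 3.58.1, run in R 4.3.3 with data.table in version 1.17.8): 14 group means over all 42 libraries, trend moderated, Benjamini-Hochberg adjusted p under 0.05 within each of 39 comparisons, for the 12816 genes that reached 1 FPKM in 3 or more libraries. All 5 genes passed that filter. Errors are SD over 3 libraries and intervals 95%. The ratio of NEAT1 to MALAT1 was compared with exact permutation tests. The fit was also run on simulated independent normal values, which meet its assumptions. They hold no scaling or GC shift, so that run does not bear on such shifts here. Python 3.11.15, numpy 2.4.6, pandas 2.3.3 and matplotlib 3.10.9 were used. The lowest correlation across genes between libraries of 1 group was 0.994, and 0 pairs were identical.

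The 5 genes and the 9 gene lists were chosen with earlier results of these data known. Genes named from a list were among the up to 2 rising and 2 falling called genes of a comparison with the smallest p, a group mean of 5 FPKM or more and libraries that do not overlap. The values of some genes of these lists are not reported here. Alternatives were a pseudocount of 0.1, no filter, scaling by summed FPKM, by median ratio or by spike-in, the replicate number as a block, the compared groups alone, a 1.5-fold minimum and each library left out. Removing the GC trend and replacing C312S DMSO by C312S YKL 500 nM were added after seeing the data.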

Additional observations from a re-analysis of the deposited data

Results flagged for a closer look

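Of 32 tests of whether a treatment changed 1 of the 5 genes by different amounts in the 2 lines, 27 passed limma's interaction test, 24 of them with the higher value in C312S. Of all genes called in these comparisons, 47.0% to 53.1% had the higher value in C312S as deposited. By spike-in scaling these shares were 59.8% to 99.9%. The tests repeat the same 5 genes and are not independent. The difference is C312S minus WT of the log2 change. Each comparison with DMSO rests on the C312S DMSO libraries, which stand apart in summed FPKM, and these values have no version without them. Comparisons with DMSO share their control libraries.

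With YKL at 500 nM (73.7% of all genes called) the difference was 1.95 for NEAT1, 1.02 for MALAT1, 0.72 for NONO, 1.06 for SFPQ and 0.21 for PSPC1. NEAT1 was lower than DMSO in all 3 WT libraries and higher in all 3 of C312S. At 2 µM (71.8%) the values were 1.28, 0.72, 0.75, 1.13 and 0.36 in the same order. With THZ531 (68%) MALAT1 differed by 0.60, NONO by −0.23 and PSPC1 by −0.59. With THZ1 (42.2%) NEAT1 differed by 0.76, NONO by 0.44 and SFPQ by 0.40.

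With the combination at 500 nM (74.5%) the differences were 1.48 for NEAT1, 0.79 for MALAT1, 0.57 for NONO and 0.88 for SFPQ. With that at 2 µM (78.7%) they were 0.92 for MALAT1, 0.42 for NONO, 0.83 for SFPQ and −0.31 for PSPC1. The negative values of NONO and PSPC1 turned positive under spike-in scaling. When YKL at 500 nM was added to THZ531 (41.5%), which uses no DMSO library, NONO differed by 0.80, SFPQ by 0.92 and PSPC1 by 0.48. These 3 differences do not rest on the libraries that stand apart.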

How the results depend on the processing

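Of 195 values of the 5 genes, 190 kept their direction and call under median-ratio scaling, 194 with no filter, 192 with a pseudocount of 0.1, 183 with the compared groups alone, 174 without the GC trend, 142 by summed FPKM and 117 by spike-in, the last 2 turning 24 and 39. Of 1446 values with 1 library left out 1409 were kept and 0 turned. The 6 ratio comparisons with DMSO in WT kept theirs. With the replicate number as a block all 195 were kept, and 8051 genes in place of 8074 were called with YKL at 500 nM in WT. The median residual correlation of same-numbered libraries was 0.0094 (lowest −0.677), against −0.0038 for libraries of other numbers. Of the same-numbered pairs 29.7% were over 0.1, and 19 of 42 libraries were closest to their own number. Whether libraries of some groups were paired was not tested. Depth limits MALAT1 and NEAT1 most, and estimated reads cover counting error only. Where a value changed its call or direction, the cause was not tested.

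In WT against DMSO, summed FPKM gave MALAT1 −0.19 with YKL at 500 nM (adjusted p = 0.0588) and −0.059 with the combination at 500 nM (0.566), NONO −0.012 (0.713) and SFPQ 0.11 (0.005, now called) with THZ531. Spike-in gave NEAT1 −0.22 and NONO −0.015 with THZ531, MALAT1 −1.76 and PSPC1 −1.78 with THZ1, and PSPC1 −0.28 and −0.80 in the combinations. Median ratio called MALAT1 with THZ1 (0.19, 0.0479). No filter left MALAT1 at −0.20 (0.0558) with the combination at 500 nM. The compared groups alone left it at −0.20 (0.125), PSPC1 at 0.10 (0.0777) and NONO with THZ531 at −0.086 (0.142). With the combination at 500 nM, PSPC1 without the GC trend was 0.0063 (0.904) in WT and 0.10 in C312S. Leaving out libraries gave MALAT1 0.10 to 0.26 with THZ1, called without WT DMSO replicate 3 or WT THZ1 replicate 2, and −0.27 to −0.12 with the combination at 500 nM, NONO −0.11 to −0.053 with THZ531 and PSPC1 0.068 to 0.13 with the combination at 500 nM. At 1.5-fold or more, 33, 36, 1, 25, 35 and 44 of 110 list members were called, in place of 76, 79, 51, 85, 79 and 93.

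In C312S against DMSO, summed FPKM turned NONO to 0.13, 0.074, 0.17, 0.15 and 0.053 (YKL at 500 nM and 2 µM, THZ531, combinations at 500 nM and 2 µM), SFPQ to 0.40, 0.31, 0.47, 0.44 and 0.23, with THZ1 −0.075, and PSPC1 to 0.27, 0.34, 0.45 and 0.50 in the first 4. Spike-in gave NONO 0.785, 0.85, 1.30, 0.88 and 0.46, SFPQ 1.055, 1.08, 1.60, 1.17 and 0.64, and PSPC1 0.91, 1.10, 1.57 and 1.22. The median gene moved by 0.86, 0.97, 1.27, −0.14, 0.94 and 0.61 there with THZ1 the fourth, and 46.7% to 53.2% of calls were higher as deposited, 40.3% to 84.6% by summed FPKM and 19.7% to 100% by spike-in. With YKL 500 nM in place of DMSO 13 of 25 values turned: NEAT1 −0.33 (YKL at 2 µM), −0.21 and −0.81 (combinations), MALAT1 −0.35 (THZ1), −0.046 and −0.20 (combinations), NONO 0.065 (THZ531), 0.016 and 0.0044 (combinations), SFPQ 0.093 (THZ531) and PSPC1 0.078 (YKL at 2 µM), 0.20 (THZ531) and 0.23 (combination at 500 nM).

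Other values that turned by spike-in were the WT YKL dose step (NONO 0.46, SFPQ 0.39, PSPC1 0.46), the combination dose step (WT NONO −0.59 and PSPC1 −0.52, C312S PSPC1 −0.39), YKL 500 nM added to THZ531 in C312S (PSPC1 −0.35), THZ531 added to YKL at 2 µM (WT NONO −0.62, SFPQ −0.70 and PSPC1 −0.17, C312S NONO −0.38 and PSPC1 −0.28), C312S against WT (DMSO NONO −0.98, SFPQ −1.35 and PSPC1 −0.91, THZ1 NEAT1 0.22) and the difference between lines (THZ531 NONO 1.32, SFPQ 1.496 and PSPC1 0.93, combinations PSPC1 1.498 and 1.62). By summed FPKM they were the WT combination dose step (NONO −0.073, PSPC1 −0.0083), THZ531 added to YKL at 2 µM in WT (SFPQ −0.039), C312S against WT under DMSO (NONO −0.045, SFPQ −0.41) and the difference between lines (THZ531 NONO 0.18 and SFPQ 0.36, combinations PSPC1 0.23 and 0.16).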
